A study of Mus musculus with 6 samples.

Results

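Immediate early genes are switched on within minutes of a stimulus by transcription factors that are already present in the cell. The 10 members described here were chosen by symbol, with earlier results of these data known: Fos, Fosb, Jun, Junb, Egr1, Atf3, Ier2, Ier3, Zfp36 and Btg2. They are 10 of the 23194 genes in the deposited table, and all 10 were among the 15486 genes that passed the filter on low counts. RNA came from the whole left lung. All mice were C57BL/6, an inbred strain, of adult age and with a wild type genotype. The 3 control lungs came from naive mice that received no stated operation. The 3 injured lungs had 4 h of warm ischemia by tying off the left pulmonary artery, as their titles state, and then 24 h of reperfusion. The design has no sham-operated group, so operation and ischemia cannot be told apart. The labels do not say how the lungs were spread over animals. The p-values set the difference between groups against the spread between these samples, whether or not each came from its own animal. The comparison asked which transcripts differ in the left lung after ligation and reperfusion. None of these 10 genes was called by the test used, which called 3.11% of the genes tested. Their median standard error (SE), 0.25 log2 units against 0.14 over all genes tested, limited what could be detected.

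In most cells a mitogen, stretch or stress signal passes through MAP kinases to SRF, its ternary complex partners and CREB, which sit at immediate early promoters and drive a short burst of transcription. Fos, Fosb, Jun and Junb encode basic leucine zipper (bZIP) subunits that pair to form the transcription factor AP-1, and Atf3 encodes a stress-induced bZIP factor that often represses its targets. Egr1 encodes a zinc finger transcription factor that vascular cells induce under shear and low oxygen. Zfp36 encodes tristetraprolin, which binds AU-rich elements in mRNA and speeds its decay, and Btg2 encodes an antiproliferative protein that recruits the CCR4-NOT deadenylase. The burst ends quickly because these mRNAs are unstable.

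The structure, promoters and 3′ ends of the members were compared with those of other genes, and none of these features was used to choose them. In GENCODE M21, on the transcript with the longest coding sequence, all 10 had at most 4 exons, as did 21.5% of 14442 tested genes with a coding transcript. The median number of exons was 2, against 9 over those genes. The median gene span, taken over the whole gene and not 1 transcript, was 3710.5 bases, against 24522 over those genes. Atf3 was the 1 member above the latter, at 47744 bases. By the deposited coordinates given below, Atf3 spans 13045 bases. The pentamer ATTTA, the core of AU-rich decay elements, occurred in the 3′ untranslated region of 9 members, against 63.9% of the genes, and 3 or more times in 6 members, against 32.98%. Ier3 held 5 copies in 613 bases and Fos 4 in 815 bases, whereas Ier2 held 0 in 755 bases. The longer TATTTAT, which tristetraprolin favours and which contains ATTTA, occurred in 7 members, against 26.5% of the genes. RefSeq promoters of build GRCm38.p6, running from 250 bases before to 50 bases after the start, were taken for 8 of the 10 members. Egr1 and Ier2 were not among these 8, so the motif counts below do not cover them. Motifs were searched on both strands. The letters TGACG, the core of the cAMP response element that CREB and ATF proteins bind, occurred in 5 of the 8, against 20.8% of 32851 promoters. The full palindrome TGACGTCA, which holds that core on both strands, occurred in 1 of the 8, against 1.79%. TATAAA occurred in 2 of the 8 (13.6% of all promoters), CCAAT in 5 (37.4%) and GCGNGGGCG, the letters bound by EGR proteins, in 3 (5.55%). The CArG box of SRF occurred in 1, Zfp36 (1.63% of all promoters), and TGANTCA, the AP-1 letters, in 0 (7.81%). These are matches of letters within this window and do not show binding. The 250 bases before the start are shown for the 5 members with TGACG, because CREB, which binds it, is one of the activators of these genes named above. They are Fos (chr12:85473640-85473889, plus strand), Fosb (chr7:19310046-19310295, minus strand), Junb (chr8:84978749-84978998, minus strand), Atf3 (chr1:191183334-191183583, minus strand) and Btg2 (chr1:134079156-134079405, minus strand). Capitals mark TGACG in either orientation and TATAAA. The TATAAA counted for Junb began at position 1, past the 250 bases shown, so it is not in the stretch below.
Fos: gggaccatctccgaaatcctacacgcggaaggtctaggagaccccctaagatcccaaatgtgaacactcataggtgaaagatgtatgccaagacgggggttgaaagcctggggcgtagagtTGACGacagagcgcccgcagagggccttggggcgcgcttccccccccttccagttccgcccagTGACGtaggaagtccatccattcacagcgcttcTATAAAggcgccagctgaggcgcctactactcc
Fosb: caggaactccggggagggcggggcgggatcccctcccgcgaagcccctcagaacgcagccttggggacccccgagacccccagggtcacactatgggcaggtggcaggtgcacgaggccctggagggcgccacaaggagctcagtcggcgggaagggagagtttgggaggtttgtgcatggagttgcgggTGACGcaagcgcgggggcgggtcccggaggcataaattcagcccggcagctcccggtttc
Junb: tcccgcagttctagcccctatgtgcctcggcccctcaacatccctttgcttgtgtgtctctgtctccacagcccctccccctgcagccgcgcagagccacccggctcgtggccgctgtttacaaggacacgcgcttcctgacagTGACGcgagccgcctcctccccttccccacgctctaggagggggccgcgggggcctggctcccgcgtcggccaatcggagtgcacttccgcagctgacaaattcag
Atf3: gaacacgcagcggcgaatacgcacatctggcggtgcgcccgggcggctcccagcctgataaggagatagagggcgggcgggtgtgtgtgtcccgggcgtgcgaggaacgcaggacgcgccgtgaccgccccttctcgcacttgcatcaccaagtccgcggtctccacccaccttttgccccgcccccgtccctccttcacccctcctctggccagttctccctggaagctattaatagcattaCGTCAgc
Btg2: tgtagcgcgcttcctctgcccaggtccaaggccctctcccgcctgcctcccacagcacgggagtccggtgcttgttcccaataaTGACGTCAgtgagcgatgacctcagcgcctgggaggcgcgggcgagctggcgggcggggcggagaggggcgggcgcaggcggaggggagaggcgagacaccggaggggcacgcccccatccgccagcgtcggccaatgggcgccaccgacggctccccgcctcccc
In these promoters the core began at positions -129 and -66 of Fos, -60 of Fosb, -106 of Junb and -166 of Btg2 on the strand of the gene, and at -7 of Atf3 and -163 of Btg2 on the opposite strand, where -1 is the base before the start.

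None of the 10 members was called higher or lower in injured lungs by edgeR's quasi-likelihood test at an adjusted p under 0.05. Of the 15486 genes tested, 2.16% were called higher and 0.956% lower, and 3.11% in either direction. The log2 fold change of injured over naive was below 0 for 9 of the members, as for 50.2% of the genes tested, and its median was -0.41, against -0.00096 over all genes tested. Ier2 alone had an unadjusted p under 0.05, with a lower level in injured lungs, as did 7.66% of the genes tested in that direction and 16.7% in either. DESeq2 and limma-voom also called 0 members, against 6.47% and 2.87% of the genes tested, and had 3 and 2 members at an unadjusted p under 0.05. With no filter on low counts (3.14% of genes called) and with the replicate number as a block (4.01%), 0 members were called, with 1 and 5 at an unadjusted p under 0.05. The share of all genes at an unadjusted p under 0.05 was not taken for these alternatives. The member counts at that threshold therefore cannot be set against a background. In the authors' deposited table the adjusted p of the members ran from 0.131 for Btg2 to 0.966 for Ier3. For each member the injured and naive libraries overlapped: 0 of 10 had all injured libraries below all naive ones, against 10.6% of the genes tested, and 0 had all above, against 12.3%. The highest library was naive replicate 1 for 9 members. Without that library the median log2 fold change was -0.15 and 8 members were below 0. The statistics below give the size of each difference with its 95% confidence interval, since a p above the threshold does not show equal levels.

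**Figure D1:**
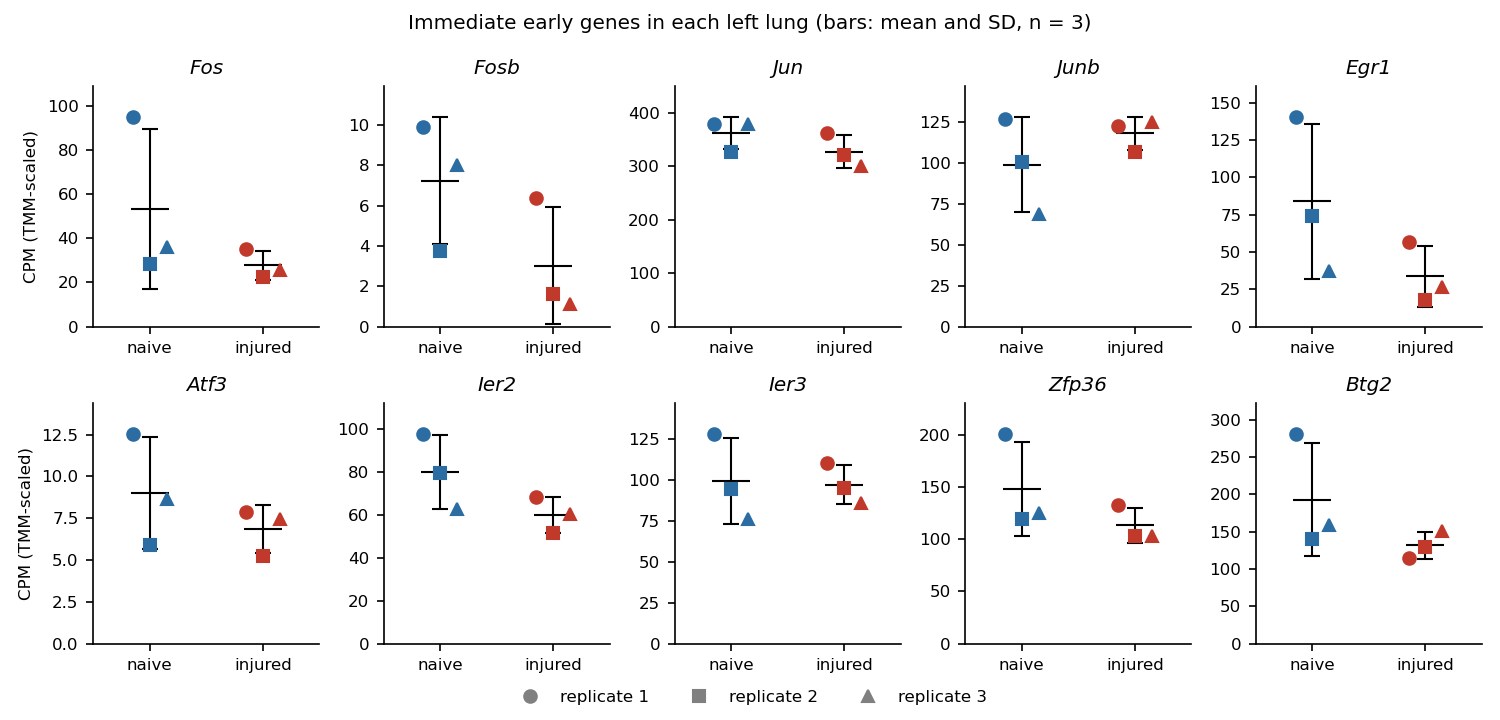
CPM of each member (vertical axes from 0) in the 3 naive (blue) and 3 injured (red) lungs, with symbols for the replicate and black bars for mean and SD. Naive replicate 1 is the highest point for every member except Jun, and the groups overlap in every panel.

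Among the AP-1 subunits, levels below are in CPM, that is, counts relative to a library size corrected by TMM, in replicates 1, 2 and 3. Fos (ENSMUSG00000021250, mm10 chromosome 12, 85473890 to 85477273) stood at 94.7, 28.5 and 36.0 CPM in the naive and at 35.2, 22.4 and 25.6 CPM in the injured lungs. Naive replicate 1 lay apart from the other 5 lungs, and naive replicate 2 was below injured replicate 1. The group means were 53.1 ± 36.2 and 27.7 ± 6.67 CPM (SD, n = 3), with an edgeR log2 fold change of -0.94 ± 0.53 (SE, 95% interval -2.33 to 0.44, adjusted p = 0.476). Without naive replicate 1 the log2 fold change was -0.23. Fosb (ENSMUSG00000003545, chromosome 7, 19302721 to 19310045), the least abundant member, stood at 9.92, 3.76 and 7.99 CPM in the naive and at 6.35, 1.60 and 1.10 CPM in the injured lungs. Injured replicates 2 and 3 were the lowest libraries, with 36 and 26 counts, while injured replicate 1 was above naive replicate 2. Its edgeR log2 fold change was -1.29 ± 0.73 (95% interval -3.08 to 0.50, adjusted p = 0.458). The value closest to a call among all members and alternatives was that of Fosb without injured replicate 1, at a log2 fold change of -2.43 and an adjusted p of 0.0572.

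The Jun subunits differed less between lungs. Jun (ENSMUSG00000052684, chromosome 4, 95049034 to 95052222), which can pair with itself or with Fos proteins, stood at 379, 328 and 380 CPM in the naive and at 362, 322 and 300.2 CPM in the injured lungs. The highest library was 1.26 times the lowest, the narrowest range of the members. Its edgeR log2 fold change was -0.14 ± 0.10 (adjusted p = 0.551), and the 95% interval of the fold ran from 0.770 to 1.06. Junb (ENSMUSG00000052837, chromosome 8, 84976909 to 84978748), a weaker activator that competes with Jun, stood at 127, 101 and 69.0 CPM in the naive and at 123, 106 and 125 CPM in the injured lungs. The injured lungs lay within a narrow band inside the naive range, and naive replicate 3 was the lowest library. Junb was the one member with a positive log2 fold change, 0.26 ± 0.20 by edgeR (95% interval -0.22 to 0.74, adjusted p = 0.608). Atf3 (ENSMUSG00000026628, chromosome 1, 191170296 to 191183340) was low in every lung, at 12.5, 5.87 and 8.66 CPM in the naive and at 7.89, 5.23 and 7.42 CPM in the injured lungs. Injured replicates 1 and 3 lay between naive replicates 2 and 3, and its edgeR log2 fold change was -0.41 ± 0.28 (95% interval -1.03 to 0.22, adjusted p = 0.526).

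Egr1 (ENSMUSG00000038418, chromosome 18, 34859823 to 34864984) stood at 140 CPM in naive replicate 1, 73.9 in replicate 2 and 37.5 in replicate 3. In the injured lungs it stood at 56.8, 17.9 and 26.5 CPM. The highest library was 7.86 times the lowest, and injured replicate 1 lay above naive replicate 3. Means were 83.9 ± 52.1 CPM in the naive and 33.7 ± 20.4 CPM in the injured lungs (SD, n = 3). The edgeR log2 fold change was -1.32 ± 0.70 (adjusted p = 0.452), close to that of Fosb, and the interval of the fold, 0.110 to 1.46, was too wide to settle its direction. Leaving out naive replicate 1 gave -0.73, and leaving out injured replicate 1 gave -1.92.

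Ier2 and Ier3 are short response genes, Ier2 encoding a nuclear protein and Ier3 a regulator of survival signalling. Ier2 (ENSMUSG00000053560, chromosome 8, 84661331 to 84662852) stood at 97.3, 79.4 and 62.6 CPM in the naive and at 68.2, 51.5 and 60.2 CPM in the injured lungs. Injured replicate 1 exceeded naive replicate 3, and the other injured lungs lay below all naive ones. Its edgeR log2 fold change was -0.41 ± 0.17 (95% interval -0.79 to -0.03, unadjusted p = 0.0369, adjusted p = 0.258), the smallest p of the members. Ier3 (ENSMUSG00000003541, chromosome 17, 35821684 to 35822923) stood at 128, 94.2 and 75.8 CPM in the naive and at 110.0, 95.2 and 85.9 CPM in the injured lungs. All 3 injured lungs lay inside the naive range, and the edgeR log2 fold change was -0.03 ± 0.19 (95% interval -0.47 to 0.40, adjusted p = 0.958).

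Of the members that act on mRNA decay, Zfp36 (ENSMUSG00000044786, chromosome 7, 28376784 to 28379255) stood at 200.4, 119 and 125 CPM in the naive and at 133, 104 and 103 CPM in the injured lungs. Injured replicate 1 was above naive replicates 2 and 3. Its edgeR log2 fold change was -0.39 ± 0.22 (95% interval -0.90 to 0.12, adjusted p = 0.434). Btg2 (ENSMUSG00000020423, chromosome 1, 134075170 to 134079120) stood at 280.2, 140.0 and 159 CPM in the naive and at 114, 129 and 151 CPM in the injured lungs. Injured replicate 3 lay above naive replicate 2, and injured replicate 1, high for most other members, was here the lowest library. Its edgeR log2 fold change was -0.55 ± 0.28 (95% interval -1.23 to 0.12, adjusted p = 0.395), and -0.19 without naive replicate 1.

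**Figure D2:**
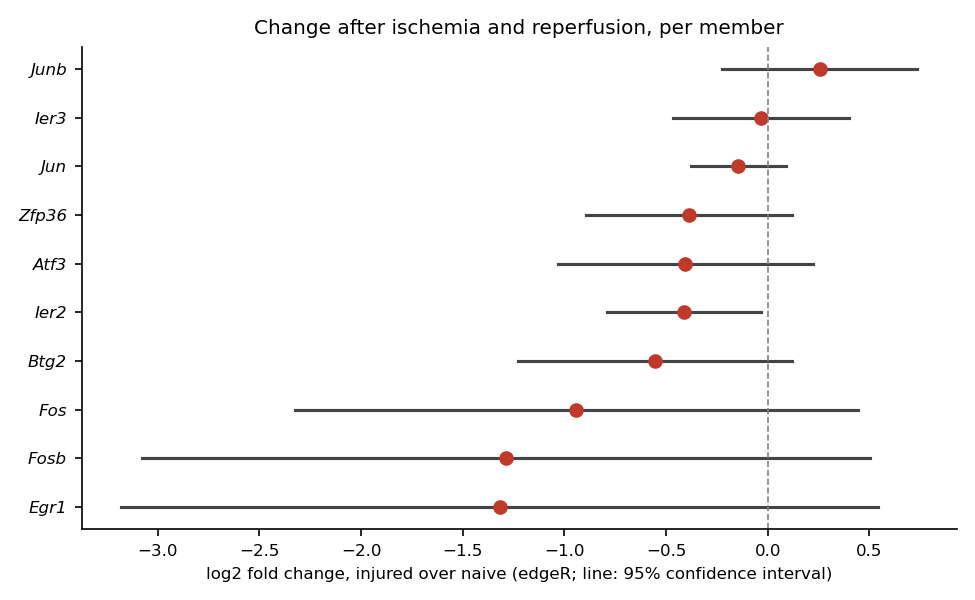
EdgeR log2 fold change, injured over naive (horizontal axis, points), with 95% confidence intervals (lines), members ordered by value. Egr1, Fosb and Fos have the lowest values and the widest intervals, the interval of Jun is the narrowest, and only that of Ier2, before adjustment over all genes, lies below 0.

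The lungs differed from each other more in these genes than in most. The SD of log2(CPM + 0.5) between naive lungs had a median of 0.48 over the members and 0.16 over all genes tested. Between injured lungs it was 0.20 over the members and 0.15 over all genes tested. The naive SD was above the median of all genes for 9 of 10 members, and the injured SD for 8. Egr1 (0.94) and Fos (0.91) had the largest naive SD and Fosb the largest injured SD (1.12), each above that of over 99% of the genes tested, whereas Jun lay below the median in both groups, at 0.12 and 0.14. The naive SD exceeded the injured SD for 8 members, as for 53.3% of the genes tested.

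**Figure D3:**
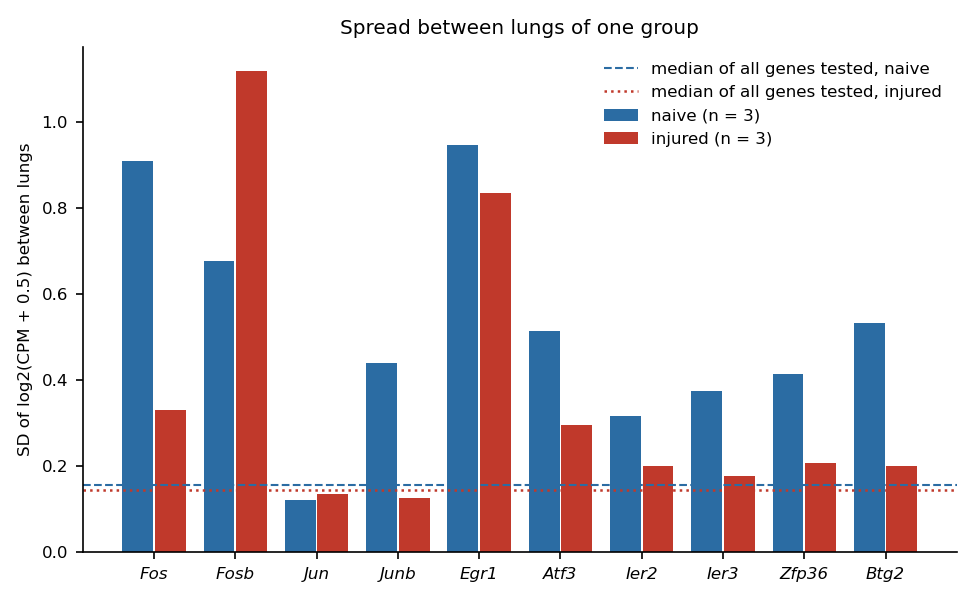
SD of log2(CPM + 0.5) between the 3 lungs of a group (vertical axis) for each member, naive in blue and injured in red, with dashed and dotted lines at the medians of all genes tested. In naive lungs 9 members stand above the median of 0.16, led by Egr1, Fos and Fosb, and Jun lies below it.

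The high naive values came largely from 1 lung. Naive replicate 1 held the highest level of all 6 libraries for 9 members, as for 17.1% of the genes tested, and the highest of the naive libraries for the same 9, as for 34.2%. It was at least 1.5 times both other naive lungs for 4 members, Fos, Egr1, Zfp36 and Btg2, as for 2.49% of the genes tested. For Fos this ratio to the next naive lung was 2.63. Relative to their own means over the 6 lungs, the members averaged 0.77 log2 units in naive replicate 1, -0.03 and -0.02 in naive replicates 2 and 3, and 0.10, -0.47 and -0.35 in injured replicates 1, 2 and 3. Injured replicate 1 was the highest injured lung for 8 members, as for 33.2% of the genes tested. The other 28 immediate early genes listed had 15 members highest in naive replicate 1 and averaged 0.32 log2 units there. The 22 other immediate early transcription factors had 7 highest there and averaged 0.15 in naive replicate 1 and 0.16 in naive replicate 3. The 16 AP-1 and bZIP relatives had 2 highest there and averaged -0.05, and the 23 upstream kinases and factors averaged -0.03. Naive replicate 1 also had the highest summed neutrophil markers of the naive lungs (357 CPM, against 262 and 267) and the lowest summed smooth muscle and fibroblast markers (3062 CPM, against 4343 and 6049). Relative to their own means, however, the neutrophil markers averaged -1.27, -1.52 and -1.17 log2 units in naive replicates 1, 2 and 3. Of the 18 neutrophil markers, 9 were highest among the naive lungs in naive replicate 1. Its summed cardiac muscle markers were 509 CPM, against 928 and 589. The part of these differences in the levels of the members was not tested.

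**Figure D4:**
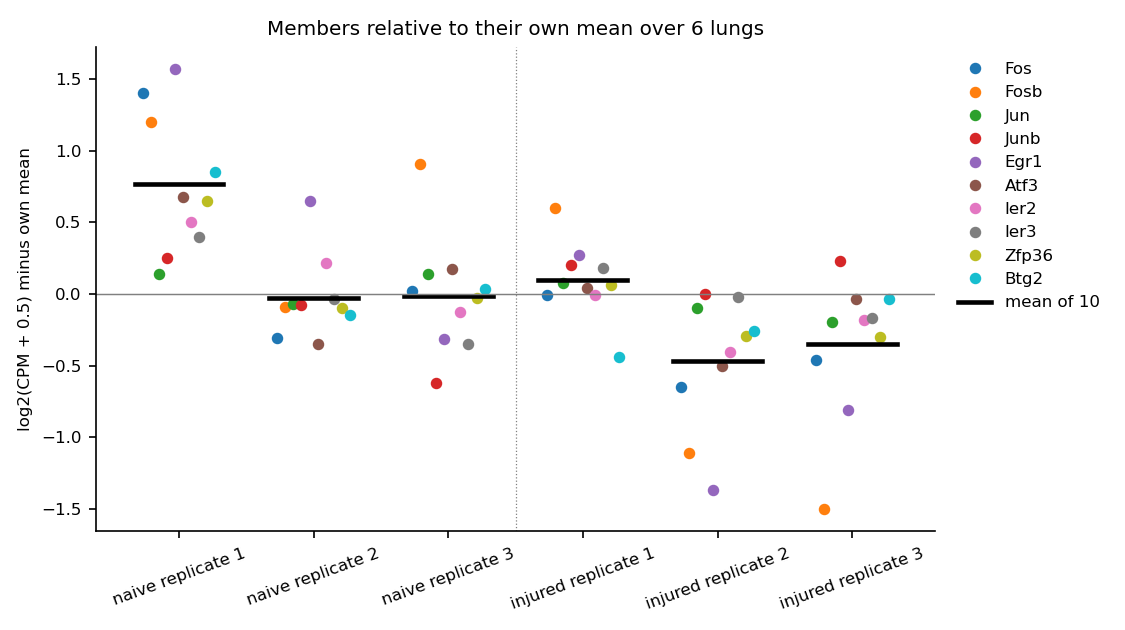
Each member's log2(CPM + 0.5) minus its own mean over the 6 lungs (vertical axis), by library, with a black bar for the mean of the 10 members. All points lie above 0 in naive replicate 1, and the mean is lowest in injured replicate 2.

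The members differed widely in abundance. By the authors' FPKM, which divides by gene length and so allows genes to be compared, mean levels in naive lungs ran from 113 ± 8.95 for Jun through Ier3 (87.4 ± 24.3), Zfp36 (82.4 ± 26.1), Btg2 (70.1 ± 28.4), Junb (53.6 ± 16.4), Ier2 (52.2 ± 12.1), Fos (25.1 ± 17.4), Egr1 (18.7 ± 11.8) and Atf3 (4.52 ± 1.71) to 1.91 ± 0.842 FPKM for Fosb (SD, n = 3). From Jun down to Egr1 each neighbour overlapped the next in the ranges of the naive lungs, so this part of the order was not resolved. Egr1 lay above Atf3, and Atf3 above Fosb, without overlap. In injured lungs Jun (103 ± 9.95 FPKM) and Ier3 (86.2 ± 10.8) overlapped each other, Junb (64.4 ± 5.39) and Zfp36 (63.5 ± 9.57) came next, and Fos (13.2 ± 3.18) and Egr1 (7.55 ± 4.58) overlapped each other. Jun mRNA was the most abundant and Fosb mRNA the least abundant of the members in each of the 6 lungs.

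Related genes were taken from 6 lists chosen with earlier results of these data known, and by the naming rule the 3 called genes with the largest changes are given, or the 2 with the smallest p where none was called. Over 16 tested AP-1 and bZIP relatives the median log2 fold change was -0.11. Of 22 tested other immediate early transcription factors, 1 rose and 1 fell, with a median of -0.18. Over all genes tested, edgeR called 2.16% higher and 0.956% lower. Cebpb, a C/EBP factor of inflammatory genes, rose from 68.3, 59.3 and 82.1 to 112, 96.6 and 111 CPM (edgeR log2 fold 0.61 ± 0.12, adjusted p = 0.0310). Nr4a2, an orphan nuclear receptor, fell from 8.94, 8.67 and 11.7 to 3.72, 6.38 and 3.92 CPM (edgeR log2 fold -1.07 ± 0.24, adjusted p = 0.0458). Of 28 other immediate early genes that do not encode such factors, 1 rose and 1 fell, with a median of -0.11. Socs3, the feedback inhibitor of cytokine signalling through STAT3, rose from 43.2, 35.1 and 33.4 to 88.1, 73.4 and 120.7 CPM (edgeR log2 fold 1.34 ± 0.19, adjusted p = 0.0105), while Ctgf, a target of YAP and SRF signalling, fell from 192, 215 and 177 to 71.6, 58.6 and 96.6 CPM (edgeR log2 fold -1.36 ± 0.18, adjusted p = 0.00673). These 4 genes had no overlap between groups, which their choice by adjusted p favours. Over the lists, 4 of the 22 and 5 of the 28 had all injured libraries below all naive ones, against 10.6% of the genes tested. All injured libraries lay above all naive ones for 2 of the 22 and 4 of the 28, against 12.3%. The calls of Cebpb, Nr4a2 and Socs3 were each lost when certain single libraries were left out, with adjusted p up to 0.130 for Cebpb (leaving out naive 1, naive 2, injured 1 or injured 3), 0.171 for Nr4a2 (without any 1 library except injured replicate 2) and 0.0618 for Socs3 (leaving out naive 2 or naive 3). The call of Ctgf held in all 13 alternatives. Without naive replicate 3 the other transcription factors included 3 rises, and without naive replicate 2 the other immediate early genes included 2 falls.

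Few upstream genes and partners in mRNA decay were called, as were few of all genes. Of the genes tested, edgeR called 3.11% in either direction, DESeq2 6.47% and limma-voom 2.87%. An unadjusted edgeR p under 0.05 was reached by 16.7%. With lists this short, 0 calls do not show equal levels. None of 23 MAP kinase pathway members, SRF and CREB partners and Egr1 corepressors passed edgeR's test, 1 had an unadjusted p under 0.05, and DESeq2 and limma-voom called 0, with a median log2 fold change of 0.02. Crebbp, the CREB-binding coactivator, and Mkl2, a coactivator of SRF, had the smallest p, with edgeR log2 fold changes of -0.22 ± 0.10 (adjusted p = 0.282) and 0.24 ± 0.11 (adjusted p = 0.303). Among 17 tested relatives and partners of Zfp36 and Btg2 in mRNA decay, edgeR called 0, 1 had an unadjusted p under 0.05, limma-voom called 0 and DESeq2 called 1 lower, with a median of -0.02. Tob1 and Tob2, antiproliferative relatives of Btg2, had edgeR log2 fold changes of -0.35 ± 0.10 (adjusted p = 0.0949) and -0.31 ± 0.14 (adjusted p = 0.302).

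Several genes reported as AP-1 or Egr1 targets rose. Of 25 tested, 6 rose and 1 fell by edgeR, and their median log2 fold change was 0.35. Over all genes tested 2.16% were called higher and 0.956% lower. This list and the marker lists below were chosen with earlier results of these data known. Cxcl2, a neutrophil chemokine, was at 0.17, 0 and 0.09 CPM in the naive and at 12.7, 1.99 and 7.68 CPM in the injured lungs (edgeR log2 fold 6.21 ± 0.96, adjusted p = 0.0229). Timp1, which blocks matrix metalloproteinases, rose from 3.76, 6.03 and 6.496 to 94.3, 100.6 and 178 CPM (edgeR log2 fold 4.52 ± 0.36, adjusted p = 0.00435), and Mmp9, a gelatinase stored in neutrophils and one of their listed markers, rose from 10.9, 10.2 and 10.9 to 154, 127 and 68.0 CPM (edgeR log2 fold 3.45 ± 0.32, adjusted p = 0.0055). The other calls were rises of Ccl2, Cxcl1 and Cd44 and a fall of Ccnd1. Leaving out naive 1, naive 3 or injured 1 left 3 rises, and leaving out naive 2 left 2. Leaving out naive 2, naive 3, injured 2 or injured 3 left 0 falls. The call of Cxcl2 was lost on leaving out any naive library or injured 3, with no filter and by limma-voom (adjusted p up to 0.167). These genes have many other regulators, and leukocyte markers differed between the same groups. Of 18 neutrophil markers 12 rose, their summed level running from 262 to 357 CPM in the naive and at 1613 to 2151 CPM in the injured lungs. Of 15 monocyte and macrophage markers 11 rose, from sums of 974 to 1013 CPM to sums of 1355 to 1572 CPM. Among the markers picked by the naming rule, the calls of Ly6g and Arg1 held in all 13 alternatives. That of S100a8 was lost in 5 of them, those of Vcan and F13a1 in 4 each, and that of S100a9 in 1. Of 14 T cell markers 4 fell, from sums of 130 to 143 CPM to sums of 73.3 to 89.7 CPM. DESeq2 called 8 of these T cell markers lower and the replicate block 2. All 14 had every injured library below every naive one, against 10.6% of the genes tested. Lef1, the called T cell marker with the largest fall (edgeR log2 fold -1.05 ± 0.15, adjusted p = 0.00672), was called in all 13 alternatives. The edgeR calls of Cd4 and Cd247 were each lost with the replicate block (adjusted p = 0.0506 and 0.0542). They were lost too on leaving out any naive library, injured 1 or injured 3 (adjusted p up to 0.159 and 0.172). That of Cd247 was lost also on leaving out injured 2. No marker of these lists was at 0 in all libraries. Their part in the levels of the members and of these targets was not tested, and in whole lung RNA more cells of a type and more RNA per cell cannot be told apart.

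**Figure D5:**
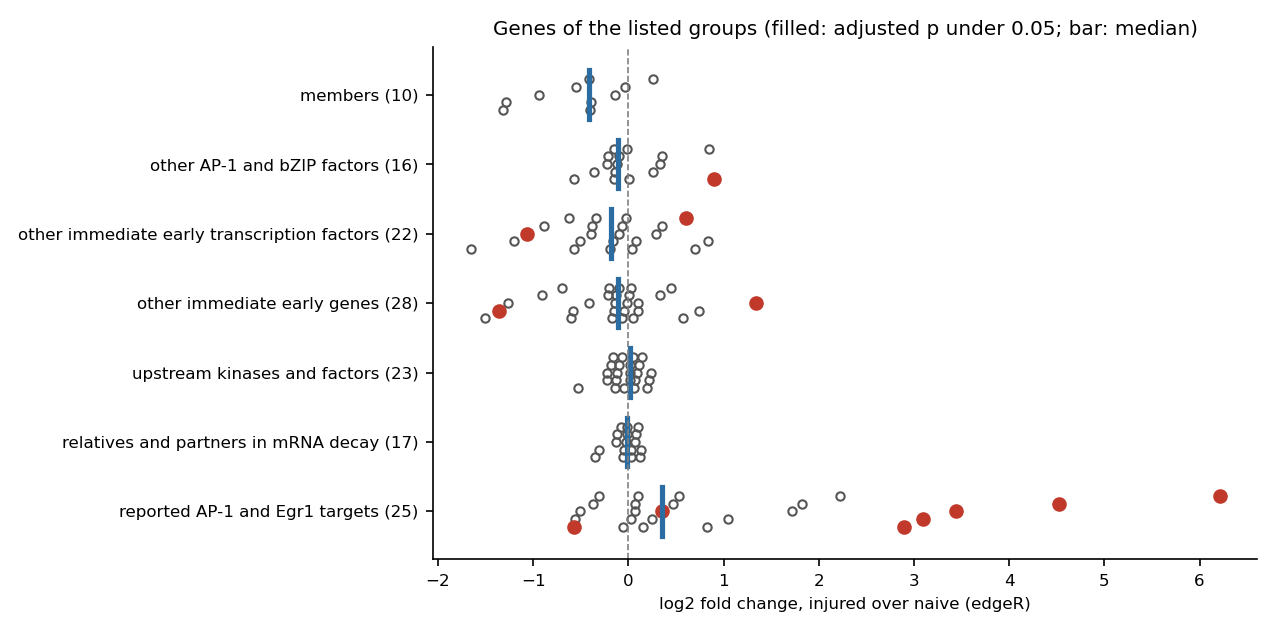
EdgeR log2 fold changes, injured over naive (horizontal axis), for the tested genes of each list (rows, number tested in parentheses), filled red where the adjusted p was under 0.05, with a blue bar at the median. The members and upstream genes hold no filled point, while the reported targets extend to a log2 fold change of 6.21 for Cxcl2.

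The genes whose levels followed the members most closely were sought by distance. For each of 11636 other genes whose mean reached 5 CPM, log2(CPM + 0.5) was centred on its own mean and set against the mean centred profile of the 10 members by the root mean square difference over the 6 lungs. The 8 nearest were Hnrnpdl, Slc25a25, G0s2, Dach1, Zfp446, Clcf1, Ppp1r15a and Epha1, at 0.14 to 0.18 log2 units. Of these, Ppp1r15a is also 1 of the 28 other immediate early genes listed. G0s2 is also 1 of the 18 neutrophil markers, and the only 1 of them with a negative log2 fold change (-0.54). Among the members the distance ran from 0.09 for Zfp36 to 0.71 for Fosb. Ppp1r15a, which encodes a stress-induced regulatory subunit of protein phosphatase 1, stood at 94.0, 59.3 and 61.8 CPM in the naive and at 48.6, 44.7 and 48.5 CPM in the injured lungs, and Hnrnpdl, an RNA-binding protein gene, at 126, 75.8 and 67.0 and at 80.1, 66.9 and 62.7 CPM. None of the 8 was called by edgeR, with adjusted p from 0.0968 for Slc25a25 to 0.538 for Hnrnpdl. Slc25a25 passed with no filter on low counts (adjusted p = 0.0308) and by DESeq2 (0.0253), Ppp1r15a by DESeq2 (0.0149) and Epha1 by edgeR on leaving out naive 3 (0.0458), all lower in injured lungs. This is a description over 6 lungs that share the same 2 groups.

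Total counts ran from 18913487 to 34986276 per library, so the members were counted by 26 (Fosb) to 12972 (Jun) reads per library. Markers of lung epithelium, endothelium, mesenchyme and alveolar macrophages were present in every library, with a summed level of 47416 to 58723 CPM over 14 genes. Of these, 1 rose, the macrophage gene Chil3 (edgeR adjusted p = 0.0161), where 2.16% of all genes tested were called higher. The call of Chil3 was lost on leaving out naive 1, injured 1 or injured 2.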

How the data were processed

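RNA was sequenced as paired-end reads of 150 bases, per the labels' protocols. Alignment and counting tools in the submitters' processing notes are STAR and HTSeq, beside edgeR, DESeq2 and STAR-Fusion, on mm10. Versions, settings and strand use: not given in the sources used here. The authors deposited 1 table with raw counts per gene, FPKM values, normalized counts (a signal equal to the counts divided by 1 factor per library), and their log2 fold changes, p-values and adjusted p-values.

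Counts were filtered by filterByExpr, scaled by TMM and tested with edgeR 4.0.16 (robust quasi-likelihood F test, group as the only term, two-sided, R 4.3.3) over 15486 genes, with Benjamini-Hochberg adjustment. A gene was called at an adjusted p under 0.05. SE is the log2 fold change divided by the square root of F. Libraries were grouped by title. Genes were named by rule: the 10 members, the 3 called genes with the largest changes in each list or else the 2 with the smallest p, and the 8 genes nearest in profile. Not every gene that the rule picked in the marker lists is described. Arntl, Dbp, Per1, Dusp1, Csrnp1, Nr4a1 and the further called targets were named outside this rule. The members and lists were chosen with earlier results of these data known. Alternatives were DESeq2 size factors, library size alone, no filter, 1 CPM in 3 samples, DESeq2 1.42.0, limma-voom (limma 3.58.1), the replicate block and each library left out. The fit was tested on simulated data. A result for 1 listed gene is not reported here.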

Additional observations from a re-analysis of the deposited data

How the results depend on the processing

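No member was called in either direction under any of the 13 alternatives, whose adjusted p for the members went down to 0.0572. Without 1 library the number of members below 0 was 8 or 9 and their median log2 fold change ran from -0.58 to -0.15. Ier3 changed sign on leaving out naive replicate 1 (0.18) or injured replicate 3 (0.05), and its log2 fold change ran from -0.20 to 0.18 over the 6 libraries left out. The share of higher among all calls changed with the tool: 585 higher and 417 lower genes were called by DESeq2, against 334 and 148 in the edgeR fit, and 460 and 269 with no filter.

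The counts of related genes were small and moved more. The share of all genes called in either direction also differed: 3.11% by the edgeR fit, 6.47% by DESeq2 and 2.87% by limma-voom. It was 3.14% with no filter and 4.01% with the replicate block. Library size alone called 354 genes higher and 148 lower. With 1 library left out, 145 to 333 genes were called higher and 48 to 146 lower. For other immediate early transcription factors, library size alone, no filter, DESeq2 and the replicate block each called 2 higher, and DESeq2 called 3 and the replicate block 4 lower. For other immediate early genes, no filter called 2 higher and DESeq2 and the replicate block 3 each, while DESeq2 called 3 and the block 2 lower. DESeq2 called 1 gene of mRNA decay lower. For reported targets DESeq2 called 10 and limma-voom 3 higher, while no filter called 2 and DESeq2 and the block 3 lower. With 1 library left out, counts ran from 0 to 1 for higher AP-1 and bZIP relatives, from 0 to 3 and 0 to 1 for higher and lower other transcription factors, from 0 to 1 and 1 to 2 for higher and lower other immediate early genes, and from 2 to 7 and 0 to 1 for higher and lower targets. The cause was not tested.

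Replicate numbers are shared by the groups, but same-numbered libraries did not deviate together: the correlations of their deviations from the group means, across genes, were 0.08, -0.09 and 0.15, and naive replicate 1 correlated best with injured replicate 2 (0.28). With the replicate block 413 of 15486 genes were called higher and 208 lower (4.01% in either direction), and 0 members. It called 4 clock genes and 2 T cell markers lower, and 1 glucocorticoid target higher and 1 lower. With it Slc25a25 passed (adjusted p = 0.0225). With 3 lungs a group, the members' median SE of 0.25 log2 units, against 0.14 over all genes tested, limits what could be detected.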

Other observations

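Genes of the circadian clock differed between the naive lungs themselves. Arntl, the clock activator, stood at 4.201 and 2.43 CPM in naive replicates 1 and 2 but at 27.7 CPM in naive replicate 3, and at 21.1, 15.6 and 20.2 CPM in injured replicates 1 to 3. Dbp, an output gene in the opposite phase, stood at 116, 215 and 23.8 CPM in the naive and at 28.0, 60.7 and 31.7 CPM in the injured lungs. Per1, which is both a clock gene and an immediate early gene, stood at 200.7, 151 and 98.6 CPM in the naive and at 50.9, 105 and 83.0 CPM in the injured lungs (edgeR log2 fold -0.91 ± 0.37, adjusted p = 0.309). Of the 14 clock genes edgeR called 0, with 4 at an unadjusted p under 0.05, while DESeq2 called 4 lower, no filter on low counts 1 lower and limma-voom 0. Over all genes tested, edgeR called 3.11% in either direction and 0.956% lower, and 16.7% had an unadjusted p under 0.05. In either direction DESeq2 called 6.47%, no filter 3.14% and limma-voom 2.87% of genes. The 2 with the smallest p were Cry2 (edgeR log2 fold -0.53 ± 0.12, adjusted p = 0.0514) and Ciart (-2.05 ± 0.51, adjusted p = 0.0958). Both passed by DESeq2 and with the replicate block. Of 12 glucocorticoid receptor targets, edgeR called 1 lower, Klf9, a Krüppel-like repressor, from 312, 306 and 308 to 166, 210 and 234 CPM (log2 fold -0.60 ± 0.12, adjusted p = 0.0288). That call was lost without any 1 library except injured replicate 3, with adjusted p up to 0.113. DESeq2 called 2 of these targets higher and 2 lower, and limma-voom 1 lower.

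Other immediate early genes with a high value in naive replicate 1 are named here after their values were seen. Dusp1, a MAP kinase phosphatase, stood at 608, 186 and 237 CPM in the naive and at 192, 124 and 112 CPM in the injured lungs. Csrnp1 stood at 106, 26.5 and 30.0 CPM in the naive and at 40.7, 36.1 and 32.8 CPM in the injured lungs. Nr4a1, an orphan nuclear receptor, stood at 85.9, 27.9 and 31.5 CPM in the naive and at 31.1, 14.7 and 17.5 CPM in the injured lungs. None of them passed edgeR's test, with adjusted p of 0.353, 0.733 and 0.401.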
